A study of Mus musculus with 12 samples.

Results

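The urokinase system and cathepsin C were followed in microglia of the mouse hippocampus through 4 genes of an immune panel: Plau, Plaur, Ctsc and Ctsg. They were picked by name from the 545 immune genes of the raw count table, and all 4 were found there. The choice was made with the age comparison of these samples already known. The age differences of the 4 genes are therefore given as a description, without a test.

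The samples were control male pups of strain Balbc aged 14 days (P14, n = 6) or 28 days (P28, n = 6) after birth, and each came from its own litter, which makes each sample a separate animal. Control rearing is shared by both groups, and the stressed animals of the wider study were not analysed here. Microglia were enriched on a Percoll gradient and sorted by flow cytometry; the sorting markers are not given in the sources used here. RNA was amplified with 5 rounds of PCR and counted on the nCounter platform, in which fluorescent barcodes bound to the target molecules are counted directly, without sequencing. The comparison asks how immune genes of microglia differ between the ages.

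Plau encodes urokinase, a secreted serine protease that turns plasminogen into plasmin, and Plaur encodes its receptor, a protein anchored to the outer membrane by a lipid. Bound to that receptor, urokinase directs proteolysis to the cell surface, and the receptor signals through integrins and other membrane partners because it has no intracellular part of its own. Ctsc encodes cathepsin C, a lysosomal dipeptidyl peptidase that activates the serine proteases of immune granules by trimming their amino termini. Ctsg encodes cathepsin G, one of those granule proteases, best known from neutrophils and mast cells.

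Total counts of the 545 genes ranged from 356398 to 1534665 per sample. Levels are raw counts scaled to the geometric mean of 6 reference genes (Alas1, Gapdh, Oaz1, Polr1b, Sdha and Tbp). Each probe has its own capture efficiency, so levels are compared between samples and not between genes. P14 samples 4 and 5 had the lowest totals and stand apart from the other P14 samples in earlier results of these data, and results that rest on them are given with and without them. Microglial identity was visible in all samples, since 7 of 7 microglia markers on the panel (Cx3cr1, Csf1r, Trem2, Tgfbr1, C1qa, C1qb and Itgam) were above background. The positive-control probes differed between the ages, with a geometric mean of 542 to 651 counts in the P14 lanes and 1069 to 1235 in the P28 lanes. In such bulk samples, fewer cells of a type and less RNA per cell cannot be told apart.

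Sequences directly upstream of the transcription start show 2 members that were higher at P28 (Plaur and Ctsc) beside the member that stayed at background (Ctsg). They come from RefSeq (GRCm38.p6), on the strand of the gene, 250 bases each, ending at the base before the start. Capitals mark matches on either strand to 4 short motifs: TGANTCA for AP-1, GGGCGG for Sp1, GAGGAA for PU.1 and CACGTG, the E-box core of the lysosomal CLEAR element.
Plaur, chr7:24462233-24462482, plus strand: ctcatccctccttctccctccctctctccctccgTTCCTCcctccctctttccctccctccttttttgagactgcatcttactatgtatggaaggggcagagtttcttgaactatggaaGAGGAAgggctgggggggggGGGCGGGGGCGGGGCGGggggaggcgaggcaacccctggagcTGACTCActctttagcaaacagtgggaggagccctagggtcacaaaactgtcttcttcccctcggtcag
Ctsc, chr7:88277835-88278084, plus strand: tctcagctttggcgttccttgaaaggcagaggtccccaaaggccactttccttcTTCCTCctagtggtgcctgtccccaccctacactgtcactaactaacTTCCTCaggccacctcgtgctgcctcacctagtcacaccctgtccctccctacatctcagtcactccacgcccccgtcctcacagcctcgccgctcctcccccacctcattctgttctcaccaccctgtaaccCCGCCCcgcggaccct
Ctsg, chr14:56102575-56102824, minus strand: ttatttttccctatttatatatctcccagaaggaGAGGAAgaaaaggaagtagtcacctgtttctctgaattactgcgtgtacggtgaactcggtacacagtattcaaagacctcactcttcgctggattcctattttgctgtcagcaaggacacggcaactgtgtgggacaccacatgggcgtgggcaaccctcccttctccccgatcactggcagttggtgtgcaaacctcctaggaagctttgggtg

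The AP-1 letters occurred in the Plaur sequence alone, as TGACTCA, with its first base at -69 from the start. They are found in 6.75% of the 32851 promoter records of the same length. The Plaur sequence also held 3 Sp1 matches between -111 and -95, the last pair of which share a base. It had 2 PU.1 matches, at -216 on the other strand and at -131. In the Ctsc sequence there was 1 Sp1 match at -16 and there were 2 PU.1 matches at -196 and -149, all on the other strand. Ctsg had 1 PU.1 match, at -216. Sp1 letters occur in 32.7% and PU.1 letters in 23.3% of all records, and the CLEAR core, present in 6.02% of them, was in none of the 3 sequences. These are matches of letters, and none was tested as a binding site. For Plau no sequence is printed.

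Plau RNA was higher in every P28 animal than in every P14 animal. At P14 the lowest, median and highest scaled counts were 631, 831 and 884, and at P28 they were 1189, 1234 and 1378. The lowest values were those of P14 samples 4 and 5, and the highest P14 animal lay below the lowest P28 animal. The same held for 12.8% of the 366 genes above background in at least 40% of samples, and nothing is read from it here. The P14 mean was 779.5 ± 111 and the P28 mean 1269.5 ± 79.0 (SD, n = 6 animals each). The log2 difference, P28 minus P14, was 0.70 ± 0.11 (SE from edgeR's model over all genes), a 1.63-fold higher level. It was 0.58 ± 0.08 without P14 samples 4 and 5, whose removal left 4 P14 animals between 829 and 884 (849.7 ± 25.4, SD, n = 4).

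Plaur, the receptor, was also higher at P28, from close to background. Scaled counts had a lowest value of 27.0, a median of 36.3 and a highest value of 51.9 at P14, against 46.1, 53.1 and 63.9 at P28. The ages overlapped through P14 sample 5 alone, which carried the 51.9. That value rests on 21 raw counts, with an exact 95% Poisson interval of 13 to 32.1 that covers counting error only. Means were 37.2 ± 9.39 and 53.3 ± 5.97 (SD, n = 6 each), and the log2 difference was 0.54 ± 0.16. Without P14 samples 4 and 5 it was 0.57 ± 0.15.

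Ctsc differed most of the members. Its scaled counts were 509, 821 and 927 (lowest, median and highest) at P14 and 1196, 1600.3 and 1867 at P28, with no overlap. The same held for 12.8% of the 366 genes, and nothing is read from it. P14 samples 4 and 5 were again the lowest, at 563 and 509, and P28 sample 138 was the lowest of its age. Means of 753 ± 174 and 1580.35 ± 243 (SD, n = 6 each) gave a log2 difference of 1.07 ± 0.16, or 2.09-fold. Without P14 samples 4 and 5 the difference was 0.88 ± 0.12.

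Ctsg, the granule protease that cathepsin C can activate, was not detectable above background at either age. Its 11 to 30 raw counts per sample were 0.775 to 1.05 times the threshold of their lane, defined as 2 SD above the mean of the 8 negative probes. It passed that threshold in 1 of 6 samples at P14 and 1 of 6 at P28, P14 sample 4 and P28 sample 134. No difference between the ages is given for it. The authors' deposited table of scaled values holds Plau, Plaur and Ctsc and no row for Ctsg.

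**Figure D1:**
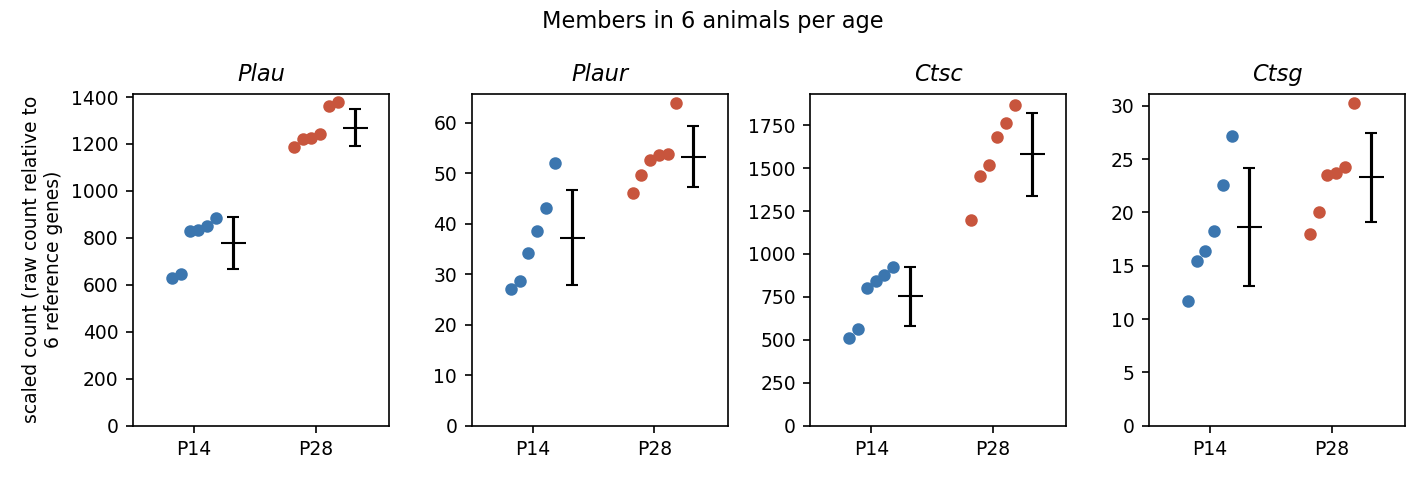
Scaled counts (vertical axes, each from 0) of the 4 members in 6 animals at P14 (blue) and 6 at P28 (red); points are animals sorted by value, and black marks are the mean ± SD. Plau and Ctsc have no overlap between the ages, as have 12.8% of the 366 tested genes in that direction. Plaur overlaps through P14 sample 5, and the Ctsg values lie at background.

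Across the panel, edgeR's quasi-likelihood test called 30.6% of the 366 genes at an FDR of 0.05 (16.7% as higher with age and 13.9% as lower). Ordered by signed log2 difference, Ctsc ranked 22, Plau 32 and Plaur 49 among the 366. The genes were named with these differences in view, so nothing is read from their place. In the authors' deposited table the folds of the P28 mean over the P14 mean were 1.78 for Plau, 1.56 for Plaur and 2.30 for Ctsc.

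The members lay at different distances from background. Plau stood at 19.7 to 59.9 times its lane threshold and Ctsc at 15.9 to 70.9 times, whereas Plaur stood at 1.44 to 2.57 times. The mean of the negative probes came to between 19.4% and 41.1% of the Plaur count, and to at most 2.79% of the Plau count and 3.46% of the Ctsc count. With that mean subtracted, the log2 difference of Plaur was 0.75 ± 0.20, and those of Plau and Ctsc were 0.72 ± 0.10 and 1.10 ± 0.18. These errors are standard errors from the 6 animals of each age.

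**Figure D2:**
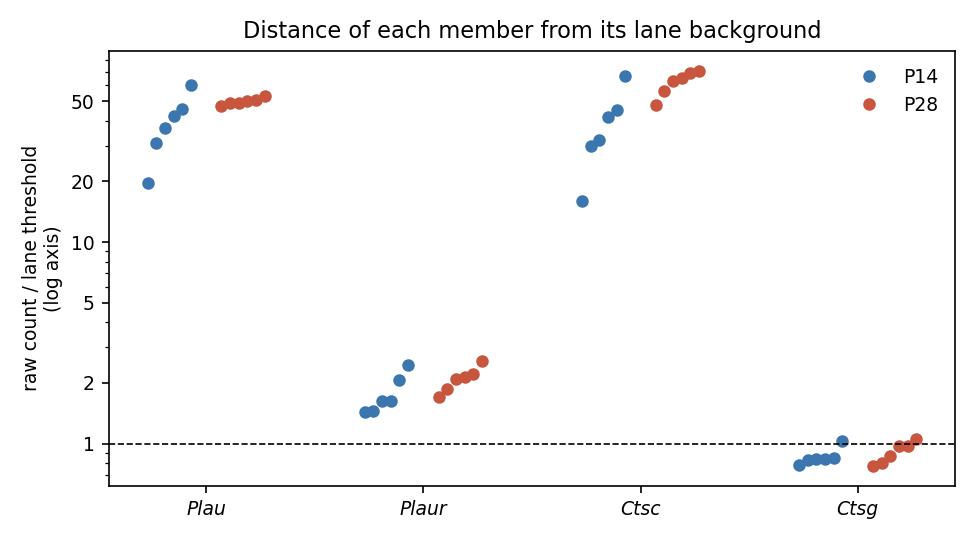
Raw count divided by the threshold of its lane (log axis) for each member and animal, P14 in blue and P28 in red, sorted by value; the dashed line is the threshold. Plau and Ctsc lie far above the line, Plaur between 1.44 and 2.57, and Ctsg around it, from 0.775 to 1.05.

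The spread between animals of an age is set beside counting error. The coefficient of variation of Plau was 14.2% at P14 and 6.23% at P28, where counting error alone would give 4.11% and 2.66%. For Ctsc it was 23.0% and 15.4% against 4.34% and 2.41%. Plaur varied by 25.2% at P14 and 11.2% at P28, where its low counts give 18.1% and 13.02%. Amplified copies of a molecule are counted more than once, so these counting errors are lower limits. The Plaur variation at P28, an estimate from few animals, nevertheless lay below its counting error. Without P14 samples 4 and 5 the P14 variation was 2.99% for Plau, 6.20% for Ctsc and 19.3% for Plaur. The P14 counting errors above include those samples and are not matched to these values.

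The size of each difference depended on what the counts were scaled to. Over the alternatives other than positive controls alone and single samples left out, the log2 difference lay between 0.55 and 0.84 for Plau, 0.39 and 0.75 for Plaur and 0.88 and 1.21 for Ctsc. Scaled to positive controls alone, Plau and Plaur turned negative, at -0.070 ± 0.35 and -0.16 ± 0.33, and Ctsc was 0.27 ± 0.37. On that scale the median of all 366 genes was -0.74, against 0.0026 with the 6 reference genes. The part of the positive-control difference between the lanes in these values was not tested.

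**Figure D3:**
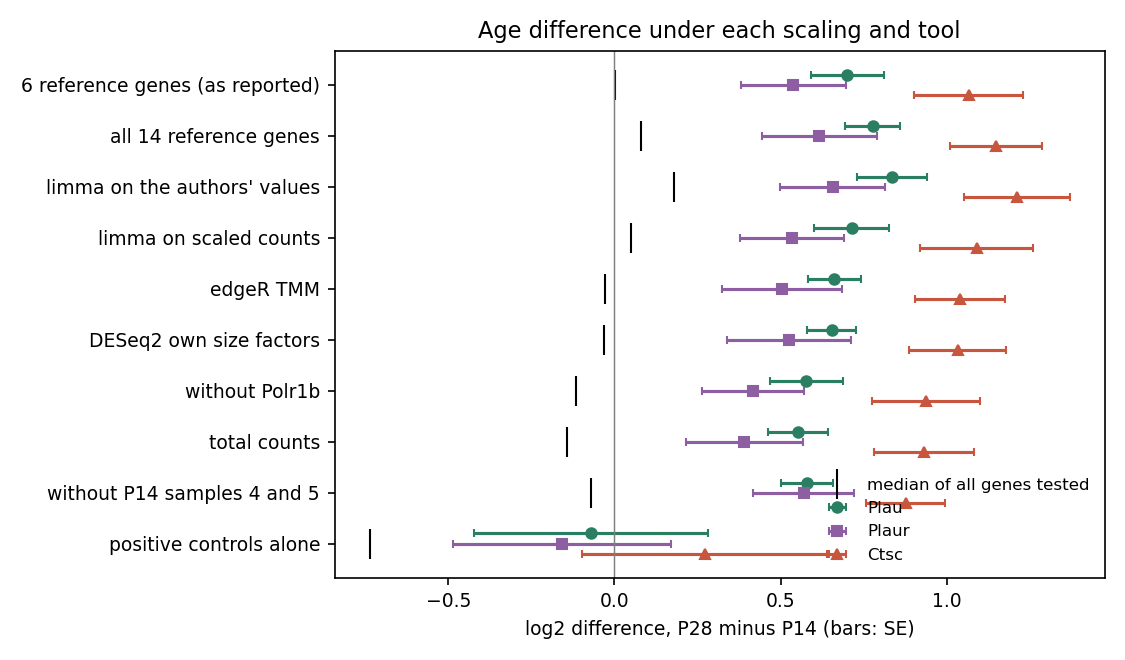
Log2 difference, P28 minus P14, of Plau, Plaur and Ctsc under 10 settings, with SE bars; the vertical tick in each row is the median of all genes tested under that setting. Plau and Plaur fall below 0 with positive controls alone, where Ctsc is at 0.27 and the median of all genes at -0.74.

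Ratios of 2 genes within a sample do not depend on the scaling. For urokinase over its receptor, log2 Plau/Plaur was 4.41 ± 0.45 in P14 animals and 4.58 ± 0.21 in P28 animals (SD, n = 6 each). The difference of 0.17 was smaller than either SD and became -0.014 without P14 samples 4 and 5. Ctsc was higher relative to Plau, with log2 ratios of -0.073 ± 0.16 at P14 and 0.30 ± 0.22 at P28, and relative to Plaur, with 4.34 ± 0.58 and 4.88 ± 0.22. The Ctsc/Plau difference of 0.38 was 0.29 without P14 samples 4 and 5. The Ctsc/Plaur difference of 0.54 was smaller than the P14 SD and came to 0.27 without those samples and 0.34 without sample 5 alone. Ratios with Plaur do depend on background, and with the negative-probe mean subtracted the Ctsc/Plaur difference was 0.36. The ages overlapped in each of these 3 ratios. P14 sample 5 had the lowest Plau/Plaur and Ctsc/Plaur ratios.

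Ctsc was also set against Ctss, the cathepsin that cuts the invariant chain from MHC class II molecules. The log2 ratio Ctsc/Ctss was -5.80 ± 0.19 at P14 and -5.90 ± 0.16 at P28, a difference of -0.099 that is smaller than either SD and was -0.21 without P14 samples 4 and 5. Plaur was set against the chains of the integrin Mac-1, with which the urokinase receptor associates on myeloid cells. Relative to Itgam, the alpha chain, the log2 ratio was -11.0 ± 0.47 at P14 and -10.1 ± 0.31 at P28. P28 sample 138, at -10.6, was the only P28 animal within the P14 range. Relative to Itgb2, the beta chain, the log2 ratio was -5.77 ± 0.60 and -5.18 ± 0.27, and P14 sample 5, at -4.74, lay above every P28 animal. Without P14 samples 4 and 5 the difference went from 0.91 to 0.75 for Plaur/Itgam and from 0.59 to 0.88 for Plaur/Itgb2. With all samples and the negative-probe mean subtracted, the differences were 1.11 for Plaur/Itgam and 0.79 for Plaur/Itgb2.

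**Figure D4:**
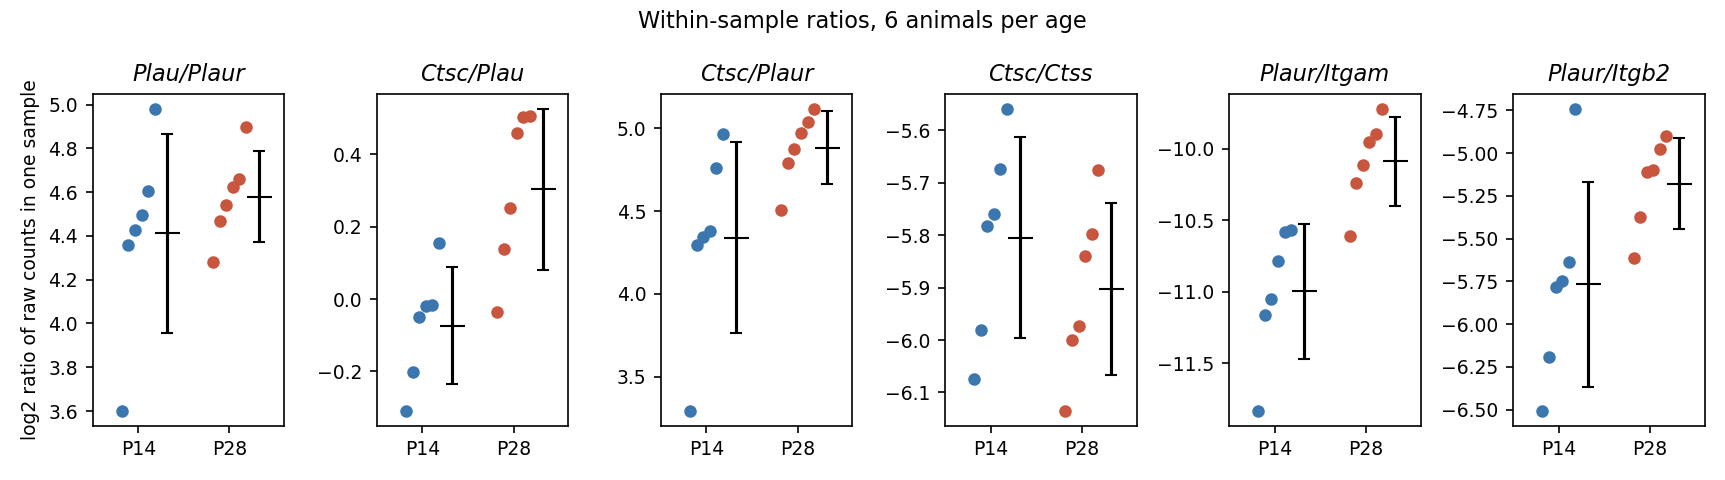
Log2 ratios of raw counts within a sample for 6 gene pairs, 6 animals per age (P14 blue, P28 red, sorted by value) with mean ± SD in black; the vertical axes differ and do not start at 0. The ages overlap in each pair, with the smallest differences for Ctsc/Ctss and Plau/Plaur, while most P28 animals lie above the P14 animals for Plaur/Itgam.

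Relations between members were examined within each age, which does not use the age difference. Of 6 relations (3 pairs in 2 ages, 6 animals each), 0 passed a Benjamini-Hochberg adjusted p of 0.05 in exact two-sided permutation tests, and 1 had an unadjusted Pearson p under 0.05. This was Plau with Ctsc at P14 (Pearson r = 0.97, exact p = 0.0361, adjusted p = 0.217; Spearman rho = 0.83, exact p = 0.0583, adjusted p = 0.35). With the reference-gene scaling it rests on P14 samples 4 and 5, since r was 0.17 over the other 4 animals. At P28 the same pair had r = 0.30 (exact p = 0.583, adjusted p = 0.661) and rho = 0.31 (exact p = 0.564, adjusted p = 0.79). Plau and Plaur, ligand and receptor, had r = -0.20 at P14 (exact p = 0.661, adjusted p = 0.661) with rho = -0.26 (exact p = 0.658, adjusted p = 0.79), and r = -0.37 at P28 (exact p = 0.503, adjusted p = 0.661) with rho = -0.086 (exact p = 0.919, adjusted p = 0.919). Plaur and Ctsc had r = -0.28 at P14 (exact p = 0.553, adjusted p = 0.661) with rho = -0.26 (exact p = 0.658, adjusted p = 0.79), and r = 0.42 at P28 (exact p = 0.378, adjusted p = 0.661) with rho = 0.71 (exact p = 0.136, adjusted p = 0.408). Scaled to total counts, Plau with Ctsc at P14 had r = 0.91 (exact permutation p = 0.00833, adjusted p = 0.05), and 0.70 without P14 samples 4 and 5. At P28 that pair had r = 0.72 on the same scale (exact permutation p = 0.158, adjusted p = 0.317).

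The genes whose deviations from the mean of their age were most like those of Ctsc over the 12 samples were Cd14, a co-receptor for bacterial lipopolysaccharide (r = 0.95), Ctss (r = 0.93) and Tapbp, the MHC class I loading factor tapasin (r = 0.92). Without P14 samples 4 and 5 these were 0.90, 0.76 and 0.75 over 10 samples. Cd14 stayed the nearest of 365 genes, with Ctss and Tapbp at ranks 5 and 6. For Plau the nearest were Cd27, a receptor of the TNF family (r = 0.93), the Fc receptor Fcgr1 (r = 0.93) and Il4ra, the IL-4 receptor chain (r = 0.93). These fell to 0.56, 0.64 and 0.51 without those samples, at ranks 19, 10 and 29 of 365. Plaur was nearest to Ifna2 (r = 0.72), Ms4a1 (r = 0.68) and Il11ra1 (r = 0.68), which came to 0.59, 0.30 and 0.64 without them, at ranks 25, 87 and 15 of 365. These 3 genes lie near background, since Ifna2 passed its lane threshold in 10, Ms4a1 in 7 and Il11ra1 in 11 of 12 samples, and Ms4a1 reached at most 1.36 times it. All values share the reference-gene scaling and the lane, and they are descriptions with no p.

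Partners of urokinase and its receptor were read from a list of 25 genes, of which 10 were on the panel and 9 above background often enough to test. Of the 9, 2 rose, 1 fell and 6 did not pass, beside 16.7% higher and 13.9% lower over all genes, with a median log2 difference of -0.087 against 0.0026 for all 366 genes, and 7 had an unadjusted p under 0.05, as had 158 of the 366 (43.2%). Itga5, the fibronectin receptor's alpha chain, rose from 352 ± 35.0 to 467 ± 37.3 scaled counts (0.40 ± 0.10, adjusted p = 0.00817 by edgeR with Benjamini-Hochberg adjustment). Its ages did not overlap, as for 12.8% of the 366 genes in that direction, but it was at -0.35 and not called with positive controls alone. Its partner chain Itgb1 fell from 10327 ± 2406 to 6928 ± 499 (-0.58 ± 0.15, adjusted p = 0.00809 in the same test), with the ages overlapping. Pdgfrb, a growth factor receptor of pericytes, rose from 494 ± 88.9 to 660.4 ± 83.5 (0.41 ± 0.14, adjusted p = 0.0296 in the same test), a call lost without P14 sample 4, 25 or 61 or P28 sample 118, 135, 137 or 138 (adjusted p = 0.0518 to 0.0711). The Pdgfrb call was also lost with total counts (0.27), without Polr1b (0.30) and without P14 samples 4 and 5 (0.29), and the value turned to -0.35 with positive controls alone.

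The remaining partners did not pass. With total counts, without Polr1b or with positive controls alone, Itgam, Fn1 and Igf2r passed as lower. Itgam was at -0.37 ± 0.17 (adjusted p = 0.113 by edgeR) and Itgb2 at -0.087 ± 0.17. Without P28 sample 138, Itgam passed as lower (adjusted p = 0.0294 by edgeR). Fn1, the matrix protein fibronectin, was at -0.61 ± 0.23 (adjusted p = 0.0512 by edgeR) and passed as lower without P14 sample 16 or 61 or P28 sample 138, with DESeq2 and with limma on scaled counts. Fn1 was above its lane threshold in 5 of 6 P14 samples and 2 of 6 P28 samples, so its P28 level lies at background. The lane thresholds had a median of 17.4 counts at P14 and 28.5 at P28, so the ages were not held to the same cut-off. The P14 samples of Fn1 alone were enough for the 40% presence rule, and its P28 samples alone were not. Its lower calls are therefore a description and support nothing. Itga4, an integrin chain that binds fibronectin and VCAM-1, was at 0.51 ± 0.19 (adjusted p = 0.0505 by edgeR) and passed as higher without P14 sample 81 or P28 sample 119. It also passed with all 14 reference genes, with TMM, with DESeq2 and in both limma fits (adjusted p = 0.0143 to 0.0432). Igf2r, the lysosomal sorting receptor that also binds the urokinase receptor, was at -0.39 ± 0.18 and passed as lower without P14 sample 5 and without samples 4 and 5, and Il6st, the shared chain gp130, was at 0.18 ± 0.14. Vtn, the matrix ligand vitronectin, was above its lane threshold in 1 of 6 samples at each age.

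Cathepsins, granule proteases and their partners were read from a list of 40 genes, of which 6 were on the panel and 4 were testable. Of the 4, 1 rose, 1 fell and 2 did not pass, beside 16.7% higher and 13.9% lower over all genes. Their median log2 difference was 0.55, against 0.0026 for all 366 genes, and 3 had an unadjusted p under 0.05, as had 43.2% of the 366. Ctss rose from 41309 ± 4993 to 93755 ± 5782 scaled counts (1.18 ± 0.10, adjusted p = 5.4e-07 by edgeR), and this call was lost with positive controls alone (0.42 ± 0.33). Gzma, the granule protease granzyme A, which cathepsin C activates, passed its lane threshold in 5 of the 6 P14 animals and in 0 of the 6 P28 animals, at least 1.10-fold lower by the P14 mean over the P28 thresholds. The P28 thresholds were the higher, with a median of 28.5 counts against 17.4 at P14. Gzma met the presence rule only through the P14 samples where it is high, and no longer met it without P14 sample 4, 16, 25, 61 or 81, so its place in the count is a description and supports nothing. Cd74, the invariant chain, was at 0.45 ± 0.20 and passed as higher without P14 sample 61, with all 14 reference genes, with TMM, with DESeq2 and with limma on the authors' values. Prf1, the pore-former perforin, was at 0.65 ± 0.31 and passed as higher without P14 sample 16, with DESeq2 and with limma on the authors' values. Gzmb, granzyme B, and Serping1, the C1 inhibitor, were above background in 0 of 12 samples.

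**Figure D5:**
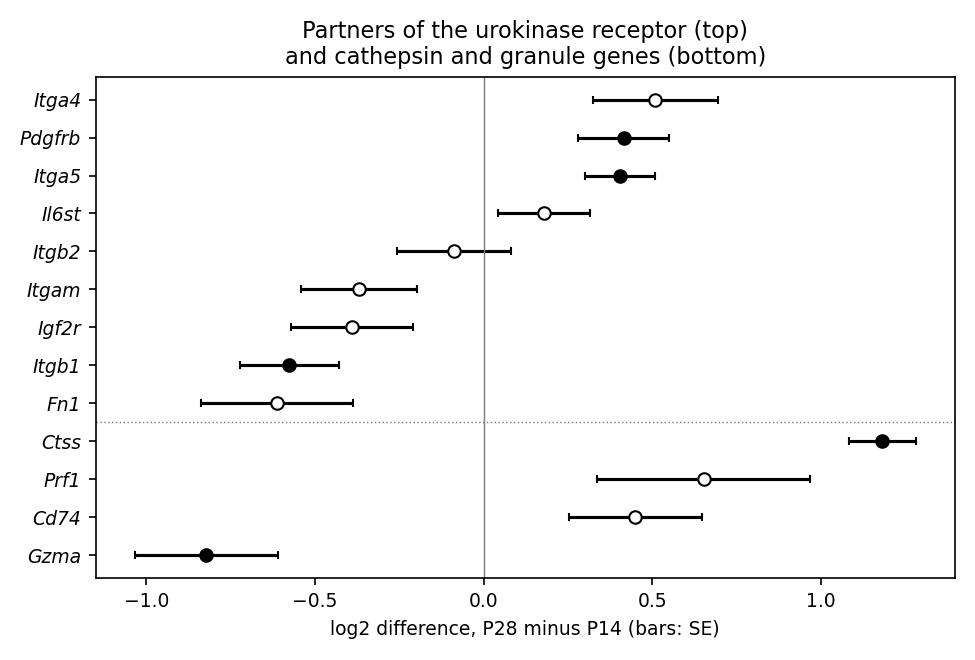
Log2 difference, P28 minus P14, with SE bars for the testable partners of the urokinase receptor (above the dotted line) and the cathepsin and granule genes (below it); filled circles passed an FDR of 0.05. Itga5, Pdgfrb and Ctss are filled right of 0 and Itgb1 and Gzma left of it; with positive controls alone Itga5 and Pdgfrb lie left of 0.

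Markers of other cells were read in the same samples. Of 7 neutrophil markers on the panel, 3 were above background often enough to test, S100a9 in 0 of 12 samples, and their summed scaled counts ranged from 2885 to 8716 at P14 and from 4199.8 to 8288 at P28; this sum includes Csf3r, which microglia also express. Of 3 mast cell markers only Il1rl1 was testable, Fcer1a was never above background, and the sums were 178 to 246 and 182 to 249. The 5 markers of monocytes and border macrophages, 4 of them testable, summed to 257 to 467 at P14 and 352 to 495 at P28. The 12 T and NK cell markers, 6 of them testable and Cd3e, Cd2 and Gzmb never above background, summed to 228 to 346 and 327 to 477. The 3 endothelial and mural markers, all testable, summed to 2073 to 3345 and 1857 to 2941. Each sum includes the markers at background. Prf1, Gzma and Gzmb (T and NK cells), Itga4 (monocytes) and Pdgfrb (mural cells) are also on the gene lists above. The part of these cells in the member levels was not tested.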

How the data were processed

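The deposited raw table holds whole barcode counts per probe, not scaled by the authors, for 545 genes, 14 reference genes, 8 negative and 6 positive controls in 12 samples. Per the labels' protocols, 2 ng of RNA were amplified before hybridisation; the counting software is not named in those sources. The authors' second deposited table holds scaled values of 336 genes, treated as a score (counts scaled to positive controls and reference genes, per the series' design text), with a fold (ratio of means) and a p-value column that was not used.

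Genes were tested where the count exceeded the lane's negative-probe mean plus 2 SD in at least 40% of samples, the rule of the design text (366 genes). Counts were fitted with edgeR 4.0.16 (R 4.3.3; glmQLFit, glmQLFTest) offset by the geometric mean over 6 reference genes, with age as the term, and adjusted by Benjamini-Hochberg over all 366. Limma 3.58.1, DESeq2 1.42.0, other scalings and left-out samples were alternatives. For the limma alternatives a pseudocount of 1 was added before log2. Correlations used log2 scaled counts. Named genes are the 4 members, the list genes on the panel, and the 3 genes nearest each testable member. The members, lists and motifs were chosen with earlier results of these data known. All 4 members matched RefSeq (GRCm38.p6) by accession. The files name no genome build; printed coordinates are those of the RefSeq sequences.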

Additional observations from a re-analysis of the deposited data

How the results depend on the processing

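Between the ages, every alternative other than positive controls alone kept the sign of the Plau, Plaur and Ctsc differences; with positive controls alone they were -0.070, -0.16 and 0.27. Leaving out 1 sample gave 0.65 to 0.74 for Plau, 0.46 to 0.62 for Plaur and 0.98 to 1.13 for Ctsc. For Ctsg, at background, no alternative was run. The Plau/Plaur difference was -0.014 without P14 samples 4 and 5 and -0.022 with the negative-probe mean subtracted; leaving out 1 sample gave 0.0055 to 0.28 for Plau/Plaur, 0.33 to 0.44 for Ctsc/Plau, 0.34 to 0.67 for Ctsc/Plaur, -0.15 to -0.049 for Ctsc/Ctss, 0.74 to 1.02 for Plaur/Itgam and 0.44 to 0.79 for Plaur/Itgb2. Of the 366 genes, 61 were higher and 51 lower. The counts were 8 and 128 with positive controls alone and 89 and 42 with all 14 reference genes, and 96 were lower with total counts. With limma on the authors' values, 89 were higher and 26 lower, of 336 genes. Without P14 samples 4 and 5, 85 of 368 genes were lower. Leaving out 1 sample gave 56 to 65 higher and 40 to 60 lower, of 350 to 366 genes. Urokinase partners, 2 higher and 1 lower, numbered 1 and 4 with total counts and without Polr1b, 0 and 4 with positive controls alone, 1 and 2 without P14 samples 4 and 5, 3 higher with all 14 reference genes, TMM, DESeq2 and both limma fits, and 2 lower with DESeq2 and with limma on scaled counts; leaving out 1 sample gave 1 to 3 in either direction. Cathepsins and granule proteases, 1 higher and 1 lower, numbered 2 higher with all 14 reference genes and with TMM, 3 higher with DESeq2, 3 and 0 with limma on the authors' values and 0 higher with positive controls alone; leaving out 1 sample gave 1 to 2 higher and 0 to 1 lower. The lower calls lost in these fits are those of Gzma, which is not in the authors' table and which missed the presence rule without P14 sample 4, 16, 25, 61 or 81. The lower calls gained among urokinase partners include those of Fn1, for which the P14 samples alone met that rule. With positive controls alone, Itga5 and Pdgfrb were -0.35 each. Scaled to total counts, r was -0.019 (P14) and -0.020 (P28) for Plau with Plaur. It was 0.91 and 0.72 for Plau with Ctsc, and -0.33 and 0.67 for Plaur with Ctsc. Within P14, r with positive controls alone was 0.87 for Plau with Plaur, 0.996 for Plau with Ctsc and 0.86 for Plaur with Ctsc (exact permutation, adjusted p = 0.0167 each); within P28 it was 0.67 (adjusted p = 0.161), 0.79 (adjusted p = 0.04) and 0.79 (adjusted p = 0.0333). That scale does not correct for the amount of RNA in a lane. Without the 2 samples farthest from the median, r was 0.31 (P14) and 0.51 (P28) for Plau with Plaur, -0.086 for Plau with Ctsc at P28 and 0.75 for Plaur with Ctsc at P14. The cause of these changes was not tested. No paired analysis was possible because the ages share no sample number.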

Other observations

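In 20 sets of 6 animals (the log2 scaled counts of the 4 members and 6 within-sample ratios, at each age), 0 held an animal whose gap to its neighbour relative to the range exceeded Dixon's 95% critical value. The widest gap, 0.600 of the range, was that of P14 sample 5 in Ctsc/Plaur, where the Plaur count was 21. The rule examines a single animal at an end of the range, so it cannot find animals that lie apart together. P14 samples 4 and 5 lie so for Plau, at 648 and 631 against 829 to 884 in the other P14 animals. For Ctsc they were at 563 and 509 against 800 to 927.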
